A study of Mus musculus with 12 samples.

Results

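The comparison described here set non-tumour liver of mice lacking both Atg7 and Hmgb1 against non-tumour liver of mice lacking Atg7 alone. The double knockout, called DKO, carries the genotype Atg7KO; Hmgb1KO in the labels, and the single knockout is called Atg7KO, so loss of Atg7 is common to both groups. All animals were C57BL/6 mice aged 15 months. RNA from 3 DKO and 3 Atg7KO non-tumour samples was sequenced, 6 of the 12 libraries of the study, whose other 6 came from tumours of the same genotypes. The labels give neither the Cre line nor the cells deleted, and they do not say that each library is a different animal. If libraries share an animal, the spread behind the p-values may be technical. Only autosomal genes were counted, 13979 of the 14443 genes with enough reads to test, while the adjustment of p covered all 14443. Other differences between the animals run together with genotype, and neither age-matched wild-type liver nor liver lacking Hmgb1 alone was analysed here.

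ATG7 is the enzyme that activates the small ubiquitin-like proteins needed to build autophagosomes, the vesicles that carry worn-out cell parts to the lysosome. Hepatocytes without it pile up the cargo receptor p62 and are known to activate the antioxidant factor NRF2, to swell and, with age, to give rise to tumours. HMGB1 is an abundant chromatin protein that stressed or dying cells release, and outside the cell it acts as a danger signal through receptors such as RAGE and TLR4. The labels ask, through the groups they set, how the liver around the tumours differs when HMGB1 is missing as well.

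Few autosomal genes separated the genotypes at the threshold used. With edgeR's quasi-likelihood test and an adjusted p under 0.05, 3 genes rose in DKO liver, 0.0215% of those tested, and 0 fell (0%). Those 3 were Socs2, a feedback inhibitor of growth hormone signalling, Coq10b, which binds the electron carrier coenzyme Q in mitochondria, and Mthfsl, a folate enzyme gene. With edgeR's p adjusted over autosomal genes alone, the values were 0.0136 for Socs2, 0.0175 for Coq10b and 0.0712 for Mthfsl. Mthfsl then no longer passed. At an unadjusted p under 0.05 the counts were 1032 higher (7.38%) and 1067 lower (7.63%). DESeq2 called 118 higher (1.07%) and 111 lower (1.01%) of the 10999 autosomal genes to which it gave an adjusted p, and voom called 326 higher (2.33%) and 217 lower (1.55%). In all, 1633 genes (11.7%) had every DKO library above every Atg7KO library and 1701 (12.2%) had the reverse order. Genes written below as past the test passed edgeR, and all other values are given as measured. DESeq2 called members of some lists below in which edgeR called 0. Among them were 4 oxidative phosphorylation, 3 core autophagy, 3 periportal, 2 clock and 2 G2/M genes, while NRF2 targets had 0. Over all autosomal genes given an adjusted p, DESeq2 called 2.08%.

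Library totals lay between 18292190 reads, in DKO replicate 2, and 30565380 reads, in Atg7KO replicate 1. The common biological coefficient of variation was 0.3647, and the Spearman correlation between the 6 non-tumour libraries ran from 0.9362 to 0.982. The genotypes also differed in sex chromosome reads, which the labels do not mention. Ddx3y, Eif2s3y, Kdm5d and Uty of the Y chromosome summed to 1898 to 4639 reads in the DKO libraries, against 0 to 2 in the Atg7KO libraries. Xist, which silences an X chromosome in female cells, had 1 to 2 reads in the DKO libraries and 2057 to 12216 in the Atg7KO libraries. Sex and the Hmgb1 genotype therefore cannot be told apart in any comparison of non-tumour liver that follows. These reads are not given here for the tumour libraries, so the same tie may hold in tumours but was not looked at. All 16 hepatocyte markers listed were detected, and their summed level was 106132 to 221852 CPM (TMM-scaled counts per library size) in DKO liver and 80750 to 156137 CPM in Atg7KO liver.

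The targeted genes did not separate the groups. Atg7 (NM_001253718, mm10 chromosome 6, 114643097 to 114860614) had 17, 13.2 and 8.78 CPM in DKO liver, against 6.99, 11.5 and 11.9 CPM in Atg7KO liver, and the groups overlapped (log2 fold change 0.37, SE 0.42, adjusted p 0.704). Hmgb1 (NM_010439, mm10 chromosome 5, 149047227 to 149053037) had 99.9, 118 and 83.5 CPM in DKO liver, against 125, 125 and 104 CPM in Atg7KO liver, and the highest DKO library lay above the lowest Atg7KO library (log2 fold change -0.23, SE 0.21, adjusted p 0.629). Counts were taken over whole genes and include reads of exons outside the deleted part and of cells in which the gene is intact, and these values check nothing about the deleted part. Of the 50-base words in Hmgb1 transcripts, 22.7% also occur in transcripts of other genes, so some of its reads may be shared. Sqstm1, which encodes p62, had 661, 768 and 812 CPM in DKO liver, against 1035, 691 and 830.2 CPM in Atg7KO liver, with overlapping groups (log2 fold change -0.19, SE 0.31, adjusted p 0.798). Around Hmgb1 on chromosome 5, 65 tested genes lay within 5 Mb, of which 0 were called and 18 (27.7%) had an unadjusted p under 0.05, against 15% of all autosomal genes.

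Socs2 had the lowest p of all autosomal genes. It encodes a STAT5 target that growth hormone induces and that in turn blocks signalling from the growth hormone receptor. Socs2 (NM_007706, mm10 chromosome 10, 95411490 to 95416857) had 68.1, 62.2 and 58.8 CPM in DKO liver, against 17.3, 9.92 and 15.3 CPM in Atg7KO liver. The DKO libraries lay close together and every one was far above the highest Atg7KO library, a 4.44-fold difference (log2 fold change 2.15, SE 0.23, adjusted p 0.00282). The same order held in tumours, with 27.3, 28.3 and 33.5 CPM in DKO tumours, against 7.25, 5.28 and 4.85 CPM in Atg7KO tumours. The difference in tumours also passed the test (log2 fold change 2.36, SE 0.24, adjusted p 0.00161), and the test of a difference between the tissues did not pass (interaction adjusted p 0.775).

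Other genes of the growth hormone and IGF axis did not follow Socs2 as a group. Of 14 members tested 1 was called, Socs2 itself, where 0.0215% of all autosomal genes were called higher. Above 0 were 7 of the 14, beside 46.3% of all autosomal genes, and the median was 0.07, beside -0.05. Cish, another STAT5-induced inhibitor of the same family, had 30.2, 26.4 and 21.7 CPM in DKO liver, against 15.9, 10.1 and 10.7 CPM in Atg7KO liver. All 3 DKO libraries were above all 3 Atg7KO libraries, but the difference did not pass the test (log2 fold change 1.09, SE 0.27, adjusted p 0.226). Igf1, the hormone that liver secretes in response to growth hormone, had 620.2, 494 and 393 CPM in DKO liver, against 124, 412 and 221 CPM in Atg7KO liver (log2 fold change 0.99, SE 0.48, adjusted p 0.358). Atg7KO replicate 2 lay among the DKO values for Igf1. Igf1 and Ghr were named after their values were seen. The receptor gene Ghr had 334, 303 and 277 CPM in DKO liver, against 143, 484 and 172 CPM in Atg7KO liver, with overlap (log2 fold change 0.19, SE 0.46, adjusted p 0.868), and Igf1r had 6.33, 3.14 and 7.82 CPM in DKO liver, against 14.8, 6.19 and 15.2 CPM in Atg7KO liver (log2 fold change -1.06, SE 0.43, adjusted p 0.299). The median of this list was -0.18 without Atg7KO replicate 1, -0.24 without DKO replicate 1 and 0.54 without Atg7KO replicate 2, so the list as a whole had no stable direction.

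**Figure D1:**
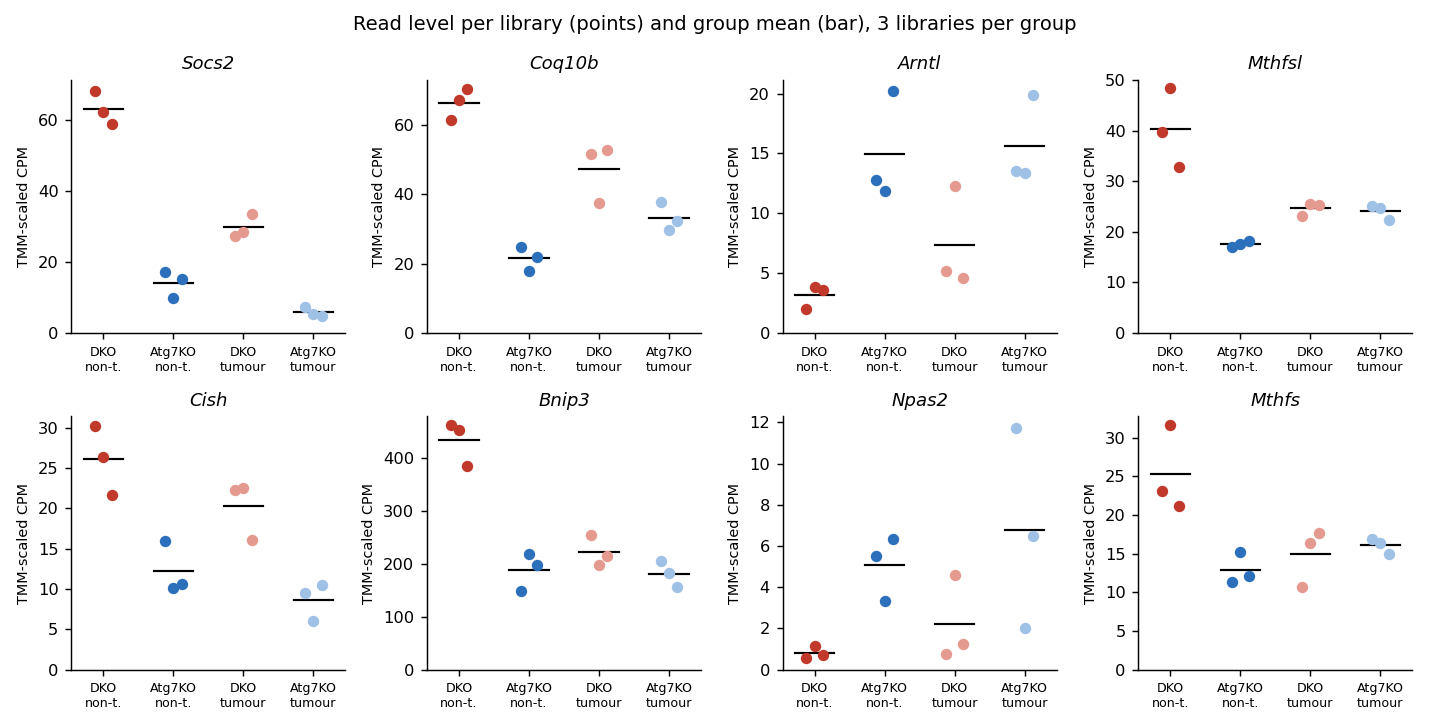
TMM-scaled CPM (y axis, from 0) of 8 genes in each library of the 4 groups (x axis, 3 points per group, bar at the mean). For Socs2, Coq10b and Mthfsl every DKO non-tumour point lies above every Atg7KO non-tumour point, and for Arntl and Npas2 every one lies below; for Socs2 the tumour groups are also apart.

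Coq10b and the mitophagy receptor Bnip3 were both among the genes with the lowest p. Coq10b (NM_001039710, mm10 chromosome 1, 55052770 to 55072702) had 61.5, 67.1 and 70.3 CPM in DKO liver, against 24.7, 18 and 22 CPM in Atg7KO liver. The highest Atg7KO library reached less than the lowest DKO library by a wide margin, a 3.07-fold difference (log2 fold change 1.62, SE 0.19, adjusted p 0.00602). Without Atg7KO replicate 3 the adjusted p was 0.0594. In tumours the values were 51.7, 37.4 and 52.7 CPM in DKO tumours, against 37.9, 29.7 and 32.3 CPM in Atg7KO tumours, and the groups there lay closer (log2 fold change 0.51, SE 0.19, adjusted p 0.233). The interaction had an unadjusted p of 0.00132 and an adjusted p of 0.175, so the tissues were not shown to differ.

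The window around the start of Coq10b is printed because it holds a pair of motifs that clock and related factors are known to bind, and the clock list is described further on. It covers chr1:55052520-55052819 on the plus strand of GRCm38.p6, from 250 bases before to 50 bases after the RefSeq start. Capitals mark, from left to right, a match to the D-box TTANNTAA and the E-box CACGTG, both searched on both strands and both the same when read on the other strand.
Coq10b: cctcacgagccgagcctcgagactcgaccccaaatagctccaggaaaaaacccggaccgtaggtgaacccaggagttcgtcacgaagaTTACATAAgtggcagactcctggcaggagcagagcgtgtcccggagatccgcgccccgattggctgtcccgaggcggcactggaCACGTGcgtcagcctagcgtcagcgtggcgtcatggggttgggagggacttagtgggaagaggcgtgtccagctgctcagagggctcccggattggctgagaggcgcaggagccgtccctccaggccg
Of 32851 RefSeq windows of this length, 7.15% hold CACGTG and 6.0% hold TTANNTAA, so a match to either is common. The share of windows that hold both was not counted, and the Bnip3 window also holds CACGTG. The matches are a description of the letters only.

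Bnip3, on the outer membrane of mitochondria, marks them for removal by autophagy. It had 464, 454 and 386 CPM in DKO liver, against 149, 218 and 198 CPM in Atg7KO liver. Every DKO library was above every Atg7KO library, 2.3-fold on average, but the difference did not pass edgeR's test (log2 fold change 1.2, SE 0.21, adjusted p 0.132) and passed DESeq2's (adjusted p 1.36e-05). Of the 50-base words in Bnip3 transcripts 47.2% occur in other transcripts, so its reads may be shared with copies. Bnip3l, a related receptor, had 124, 145 and 138 CPM in DKO liver, against 79.8, 73.6 and 85.6 CPM in Atg7KO liver, again without overlap (log2 fold change 0.77, SE 0.26, adjusted p 0.245). In tumours Bnip3 averaged 223 CPM in DKO and 182 CPM in Atg7KO (log2 fold change 0.29, SE 0.21, adjusted p 0.488). The list of coenzyme Q and mitophagy genes had 20 members tested, of which 1 was called, 15 were above 0 and 6 had all DKO libraries above all Atg7KO libraries, with a median of 0.28. Over all autosomal genes 0.0215% were called higher, 46.3% were above 0 and 11.7% had that order, and the list median was 0.18 without Atg7KO replicate 3. Coq9 and Coq7, of coenzyme Q synthesis, were named after their values were seen. Coq9 had 113, 99.2 and 84.5 CPM in DKO liver, against 72.8, 102 and 67.3 CPM in Atg7KO liver. Coq7 had 37.9, 33.3 and 27.4 CPM in DKO liver, against 35.9, 23 and 23.3 CPM in Atg7KO liver, and in both genes the groups overlapped.

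Mthfsl was the other gene past the test, and its call was lost under most alternatives. Together with its neighbour in sequence, Mthfs, it encodes the enzyme that returns 5-formyl folate to the active folate pool. Mthfsl (NM_001128601, mm10 chromosome 9, 88688605 to 88719798) had 39.8, 48.5 and 32.8 CPM in DKO liver, against 17.1, 17.7 and 18.2 CPM in Atg7KO liver. The groups did not overlap, and the mean was 2.29-fold higher in DKO liver (log2 fold change 1.19, SE 0.17, adjusted p 0.0276). It passed in 2 of the 12 fits that left out a library, where Socs2 passed in 12, and its adjusted p was 0.144 with the 6 non-tumour libraries alone and 0.0712 when X and Y genes were kept out of the adjustment. Mthfs, named after its values were seen, had 23.1, 31.7 and 21.1 CPM in DKO liver, against 11.3, 15.3 and 12.1 CPM in Atg7KO liver, in the same order but short of the test (log2 fold change 0.97, SE 0.23, adjusted p 0.226). In tumours both genotypes had Mthfsl at about the same level, 23.1, 25.6 and 25.3 CPM in DKO tumours, against 25, 24.6 and 22.4 CPM in Atg7KO tumours (log2 fold change 0.04, SE 0.17, adjusted p 0.933; interaction adjusted p 0.175).

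The start regions of the pair are printed because near-identical copies can share or lose reads. The Mthfsl stretch lies at chr9:88719538-88719836 on the minus strand and the Mthfs stretch at chr9:89211134-89211432 on the plus strand of GRCm38.p6. Capitals mark the 1 base of 299 that differs.
Mthfsl: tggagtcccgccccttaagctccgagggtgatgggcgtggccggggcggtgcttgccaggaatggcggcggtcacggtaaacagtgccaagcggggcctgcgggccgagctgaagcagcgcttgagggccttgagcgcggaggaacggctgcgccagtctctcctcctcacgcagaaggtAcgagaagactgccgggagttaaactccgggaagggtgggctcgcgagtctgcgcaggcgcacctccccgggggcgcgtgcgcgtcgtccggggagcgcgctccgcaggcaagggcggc
Mthfs: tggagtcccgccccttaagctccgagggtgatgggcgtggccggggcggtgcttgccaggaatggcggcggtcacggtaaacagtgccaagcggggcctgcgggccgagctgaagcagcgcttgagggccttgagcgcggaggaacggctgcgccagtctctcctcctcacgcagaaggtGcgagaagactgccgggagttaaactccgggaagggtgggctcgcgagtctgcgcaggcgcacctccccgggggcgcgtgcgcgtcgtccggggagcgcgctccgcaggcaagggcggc
They were 99.7% identical, and 30.1% of the 50-base words in Mthfsl transcripts occur in transcripts of other genes, so the reads of the pair cannot be fully told apart.

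Among the 12 genes named on the higher side by the rule, the other 9 did not pass edgeR, with adjusted p from 0.132 to 0.225, while all 12 passed DESeq2. Rps27l, a ribosomal protein paralogue known as a p53 target, had 191, 269 and 168 CPM in DKO liver, against 99, 94.9 and 83.5 CPM in Atg7KO liver (log2 fold change 1.18, SE 0.22, adjusted p 0.164). Vti1b, a SNARE of endosome fusion, had 76.6, 105 and 78.2 CPM in DKO liver, against 37.3, 39.4 and 44.1 CPM in Atg7KO liver, and Nmrk1, which makes NAD from nicotinamide riboside, had 61.1, 27.7 and 37.4 CPM in DKO liver, against 10.1, 13.2 and 11.5 CPM in Atg7KO liver. The DKO values of Nmrk1 lay far apart from each other for their level. Values with ± are means with the SD of n = 3 libraries. Tspan4, a membrane tetraspanin, stood at 102 ± 26.3 CPM in DKO and 47 ± 4.74 CPM in Atg7KO liver, and Rnaseh2a, the catalytic subunit that cuts RNA out of DNA, at 34.4 ± 6.42 CPM in DKO and 17.3 ± 1.98 CPM in Atg7KO liver. Cox7a2 of respiratory complex IV stood at 169 ± 43.3 CPM in DKO and 84.6 ± 9.84 CPM in Atg7KO liver, Timm8b of mitochondrial protein import at 70.5 ± 23 CPM in DKO and 34.6 ± 0.787 CPM in Atg7KO liver, and the zinc finger gene Zfand6 at 77.4 ± 6.37 CPM in DKO and 46.9 ± 2.53 CPM in Atg7KO liver. That the groups did not overlap was a condition for naming these 24 genes, so it adds nothing to their p. Vti1b, Tspan4 and Timm8b each overlap a gene on the opposite strand (Arg2, Chid1 and AU019823), whose reads may be mixed in because the strand setting is not given in the sources used here.

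On the lower side 12 genes were named and 0 passed edgeR, with adjusted p from 0.132 to 0.223, while all 12 passed DESeq2. Sult2a5, a hydroxysteroid sulfotransferase gene, had 0.0425, 0.205 and 0.132 CPM in DKO liver, against 6.07, 22 and 5.19 CPM in Atg7KO liver (log2 fold change -6.48, SE 1.10, adjusted p 0.132). Its level was near 0 in every DKO library. It shares 34.5% of its 50-base words with other genes, chiefly other Sult2a copies, so its own level is uncertain. Notch1, a receptor of cell fate signalling, had 16.7, 12.2 and 18 CPM in DKO liver, against 34.8, 40.2 and 34.6 CPM in Atg7KO liver (log2 fold change -1.22, SE 0.22, adjusted p 0.132). Kmt2d, a histone methyltransferase of enhancers, had 13.8, 8.26 and 18.3 CPM in DKO liver, against 29.6, 56.7 and 37 CPM in Atg7KO liver (log2 fold change -1.6, SE 0.32, adjusted p 0.196), and Mki67, a marker of cycling cells, had 13.8, 16 and 18.3 CPM in DKO liver, against 58.8, 29.4 and 35 CPM in Atg7KO liver (log2 fold change -1.35, SE 0.26, adjusted p 0.17). The homeobox genes Zfhx2 and Zfhx4 stood at 4.77 ± 1 CPM in DKO and 14.8 ± 1.82 CPM in Atg7KO liver and at 4.39 ± 0.914 CPM in DKO and 16.4 ± 7.59 CPM in Atg7KO liver. Uggt1, which senses misfolded glycoproteins in the endoplasmic reticulum, stood at 58.4 ± 4.6 CPM in DKO and 94.8 ± 1.38 CPM in Atg7KO liver, the magnesium transporter gene Cnnm4 at 4.58 ± 0.267 CPM in DKO and 9.15 ± 0.307 CPM in Atg7KO liver, and the kinase gene Tnk2 at 15.9 ± 2.2 CPM in DKO and 30.6 ± 2.82 CPM in Atg7KO liver. Lrfn3 stood at 5.77 ± 1.96 CPM in DKO and 14.5 ± 0.817 CPM in Atg7KO liver and Nav1 at 6.93 ± 1.57 CPM in DKO and 17.4 ± 5.24 CPM in Atg7KO liver. Zfhx2, Zfhx4 and Tnk2 each overlap a gene on the opposite strand.

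The named genes differed in length. The 12 higher ones ran from 464 to 2698 bases with a median of 1599.5, and the 12 lower ones from 1046 to 19827 bases with a median of 8876.5. The same held across the autosomal genes. Genes under 500 bases had a median log2 fold change of 0.65, those of 2000 to 3000 bases 0.01, and those over 8000 bases -0.56, and the Spearman correlation of log2 fold change with length over 13979 genes was -0.4766, as a description. Genes up to 1000 bases took 10.33%, 12.81% and 9.211% of the autosomal reads in DKO replicates 1, 2 and 3, against 9.13%, 7.26% and 7.875% in Atg7KO replicates 1, 2 and 3. DKO replicate 2, the shallowest library, had the highest share. In tumours the correlation between genotype difference and length had the other sign, 0.3582. Because of this pattern the plot of list medians gives each list also with an offset for gene length, after which the correlation was -0.03. With that offset the log2 fold changes of Socs2 (2.15 to 2.23) and Sult2a5 (-6.48 to -6.80) moved away from 0. Those of the other named genes in both directions moved towards 0. Coq10b went from 1.62 to 1.51, Uggt1 from -0.70 to -0.15 and Kmt2d from -1.60 to -0.77. Notch1 went from -1.22 to -0.67 and Timm8b from 1.03 to 0.50. The part of library preparation or RNA quality in the pattern was not tested.

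**Figure D2:**
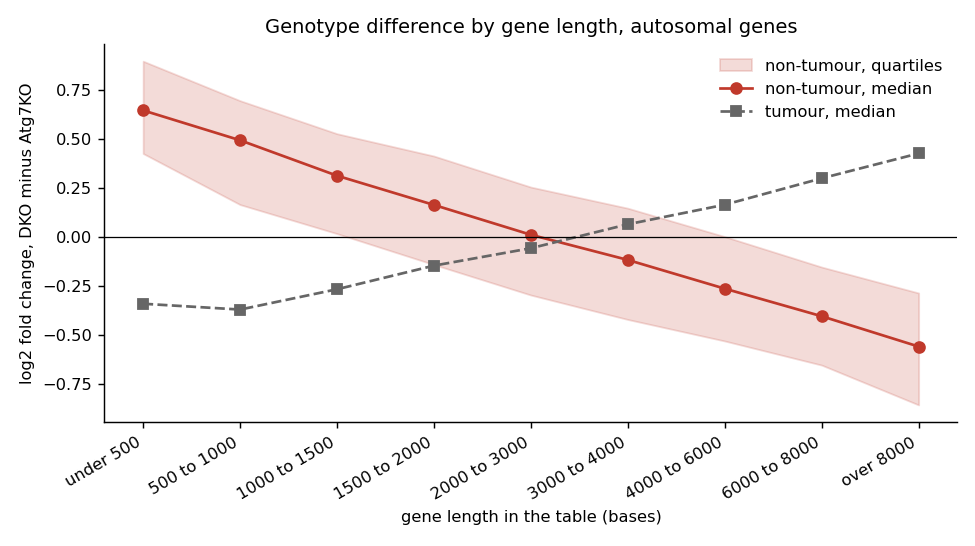
Median log2 fold change (y axis, DKO minus Atg7KO) of autosomal genes in 9 classes of gene length (x axis, bases), with the quartiles as a band for non-tumour liver and the tumour medians as a dashed line. Non-tumour medians run from 0.65 in the shortest class to -0.56 in the longest, and tumour medians from -0.34 to 0.43.

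Lists of short, abundant housekeeping genes lay above 0. Of 74 cytosolic ribosomal protein genes 74 were above 0, where 46.3% of all autosomal genes were, with a median of 0.64, and of these 52 had no overlap with DKO above, beside 11.7% of all autosomal genes. Of 67 oxidative phosphorylation genes 65 were above 0, with a median of 0.51, and of 31 proteasome subunits 29 were, with a median of 0.45 that was 0.30 without DKO replicate 2. In these 3 lists 0 members passed edgeR. With the length offset the medians were 0.26, 0.11 and 0.18. Atp5e, a small subunit of ATP synthase, had 151, 279 and 117 CPM in DKO liver, against 90, 79.4 and 74.9 CPM in Atg7KO liver, and its log2 fold change of 1.16 became 0.55 with the offset. The abundant subunit Atp5b, a longer gene, had 1395, 1265 and 1041 CPM in DKO liver, against 1075, 1289 and 937 CPM in Atg7KO liver, with overlap. In ribosomal proteins the largest values came from DKO replicate 2, as in Rps25 with 369, 652 and 322 CPM in DKO liver, against 258, 197 and 242 CPM in Atg7KO liver, and the list median was 0.37 without that library. The oxidative phosphorylation median in tumours was -0.53.

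Acute phase proteins, which hepatocytes secrete in inflammation, had the highest median of all lists, 0.88, with 21 of 24 above 0 and 0 called. It was carried by DKO replicate 2: the summed level of the list was 39040, 96701 and 31189 CPM in DKO replicates 1, 2 and 3, against 23722, 31587 and 45365 CPM in Atg7KO replicates 1, 2 and 3. Without DKO replicate 2 the median was 0.04. Apcs, serum amyloid P, had 397, 2086 and 573 CPM in DKO liver, against 176, 166 and 538 CPM in Atg7KO liver, and Socs3, the feedback inhibitor of interleukin 6 signalling, had 34.6, 47.4 and 20.3 CPM in DKO liver, against 16.1, 17.7 and 23.6 CPM in Atg7KO liver. Neutrophil genes were high in the same DKO library and in Atg7KO replicate 3: S100a9 had 17.5, 168 and 24.3 CPM in DKO liver, against 43, 8.29 and 125 CPM in Atg7KO liver. The neutrophil list summed to 72.6 to 496 CPM in DKO liver and 41.3 to 569 CPM in Atg7KO liver, with 0 of 12 called. In bulk tissue fewer cells of a type and less RNA per cell cannot be told apart. Chemokine genes behaved likewise, with 0 of 23 called and Cxcl1 at 27.7, 95.3 and 10.4 CPM in DKO liver, against 11.3, 15.2 and 22.4 CPM in Atg7KO liver.

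Genes of G2 and mitosis lay below 0. Of 25 G2/M genes 25 were below 0 (53.7% of all autosomal genes were), the median was -0.79, and 0 were called. The median was -0.73 with the length offset, so it was close to the value as fitted. Its size depended on Atg7KO replicate 1, which had the highest levels, and the median was -0.32 without that library. Tpx2, which builds the mitotic spindle, had 2.72, 5.53 and 7.02 CPM in DKO liver, against 24.5, 7.78 and 9.23 CPM in Atg7KO liver, and Cenpe, a kinetochore motor, had 2.63, 3.14 and 4.31 CPM in DKO liver, against 11.9, 5.08 and 6.5 CPM in Atg7KO liver. For Tpx2 and Cenpe all DKO libraries were below all Atg7KO libraries, although neither passed (log2 fold change -1.44, SE 0.44, adjusted p 0.238 and log2 fold change -1.22, SE 0.35, adjusted p 0.226). S phase genes showed little displacement, with 16 of 25 below 0 and a median of -0.13, which was -0.03 with the offset and 0.02 without Atg7KO replicate 1, and with Pcna at 47.5, 62.8 and 42.1 CPM in DKO liver, against 52.3, 39.9 and 45.2 CPM in Atg7KO liver. Summed G2/M levels were 136, 165 and 209 CPM in DKO replicates 1, 2 and 3, against 524, 190.2 and 236 CPM in Atg7KO replicates 1, 2 and 3. The tumour median of the G2/M list was -0.80.

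**Figure D3:**
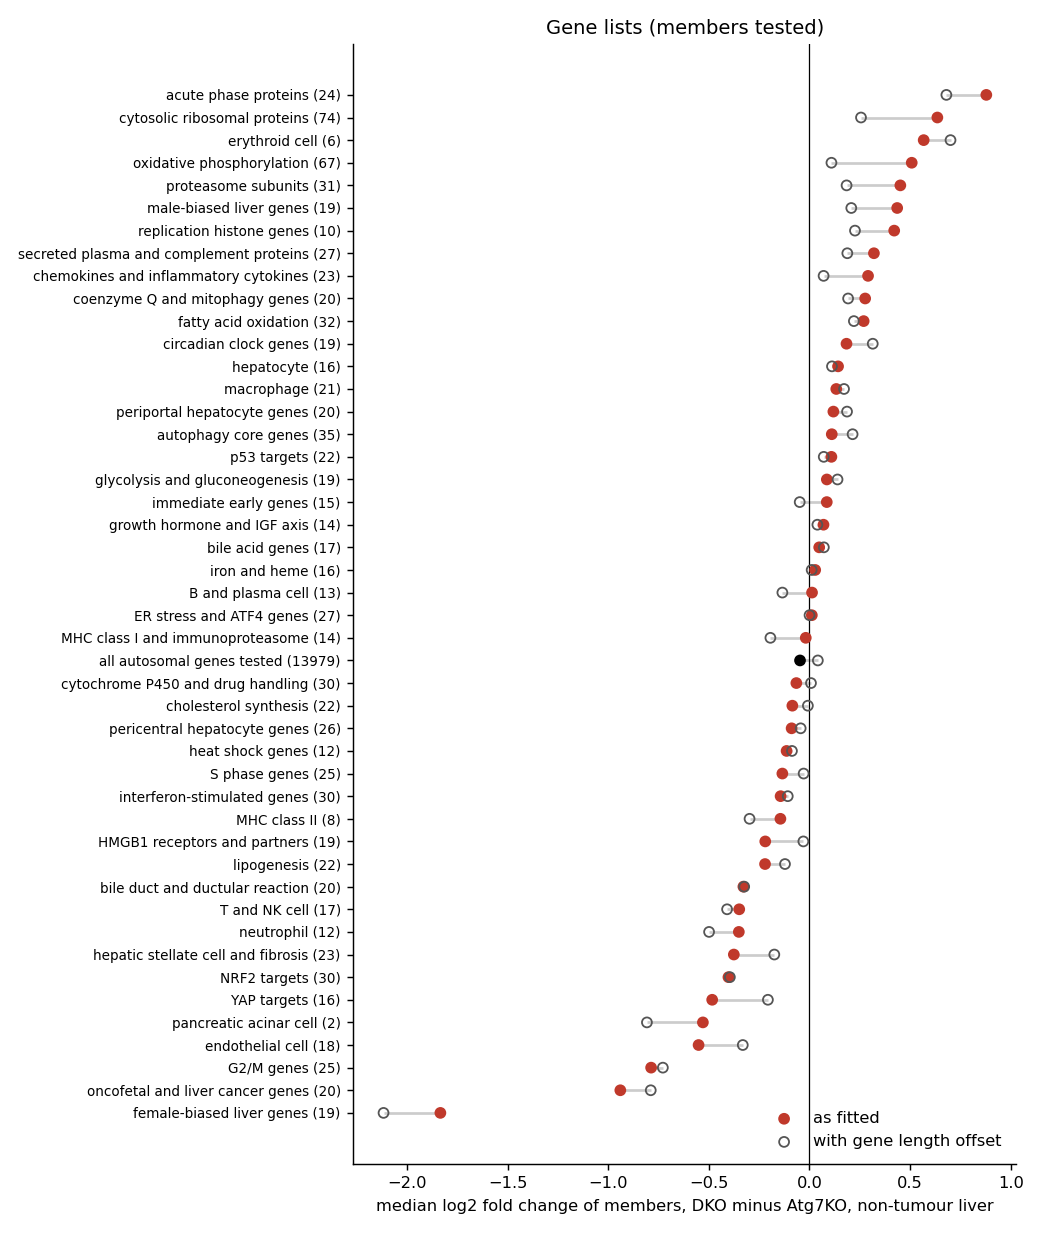
Median log2 fold change (x axis, DKO minus Atg7KO, non-tumour liver) of 45 gene lists and of all autosomal genes (black), with filled points as fitted and open points with the gene length offset, and the number of members tested in brackets. Ribosomal, oxidative phosphorylation and proteasome medians move towards 0 with the offset (0.64 to 0.26, 0.51 to 0.11 and 0.45 to 0.18), while G2/M (-0.79 to -0.73) and NRF2 targets (-0.40 both ways) do not.

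Targets of NRF2, the pathway that p62 is known to switch on when autophagy fails, had 26 of 30 below 0 and a median of -0.40, which the length offset left at -0.40. Of the 30, 0 passed edgeR and 0 passed DESeq2. Gstm1, an abundant glutathione transferase, had 5734, 4409 and 7175 CPM in DKO liver, against 13496, 5208 and 8434 CPM in Atg7KO liver, and Gstm4 had 117, 144 and 208 CPM in DKO liver, against 431, 188 and 284 CPM in Atg7KO liver. Abcc4, a membrane exporter, had 57.7, 61.6 and 149.6 CPM in DKO liver, against 253, 130.2 and 170.0 CPM in Atg7KO liver. Atg7KO replicate 1 was the highest library for each of the 3, and the median without it was -0.12. The tumour median of the list was -0.44.

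Female-biased genes of mouse liver had the lowest median of the 45 lists. Of 19 female-biased genes 15 were below 0, with a median of -1.83, and of 19 male-biased genes 12 were above 0, with a median of 0.44. Of either list 0 passed edgeR. DESeq2 called 4 female-biased and 2 male-biased genes (Cyp7b1 and Bcl6), beside 2.08% of all autosomal genes given an adjusted p. In tumours the medians of the female-biased and male-biased lists were 0.64 and -0.37. Sult2a1, a female-biased sulfotransferase, had 0.212, 7.85 and 0.464 CPM in DKO liver, against 34.6, 422 and 66.9 CPM in Atg7KO liver, and A1bg had 0.849, 2.25 and 0.828 CPM in DKO liver, against 3.37, 1376 and 38.7 CPM in Atg7KO liver. Atg7KO replicate 2 was the highest library for both genes, and the female-biased median without it was -0.57. Sult2a1 shares 33.2% of its 50-base words with other genes. The male-biased median was 0.21 with the length offset, and 0.29 without DKO replicate 1 to 0.72 without Atg7KO replicate 1. Against the direction of the male-biased list, Cyp7b1, an oxysterol hydroxylase, had 11.7, 15.6 and 14.4 CPM in DKO liver, against 31.6, 29.8 and 24.8 CPM in Atg7KO liver. Bcl6, a repressor that is higher in males, had 10.4, 12.8 and 14 CPM in DKO liver, against 26.6, 15.2 and 34 CPM in Atg7KO liver. Both were without overlap and lower in DKO liver, though neither passed edgeR (log2 fold change -1.05, SE 0.28, adjusted p 0.226 and log2 fold change -1.03, SE 0.27, adjusted p 0.226). The Y reads above are in the DKO libraries, so these genes carry the same tie between sex and genotype. Mup20, a male-biased urinary protein named after its values were seen, had 1107, 83.6 and 698 CPM in DKO liver, against 234, 209 and 85.6 CPM in Atg7KO liver.

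**Figure D4:**
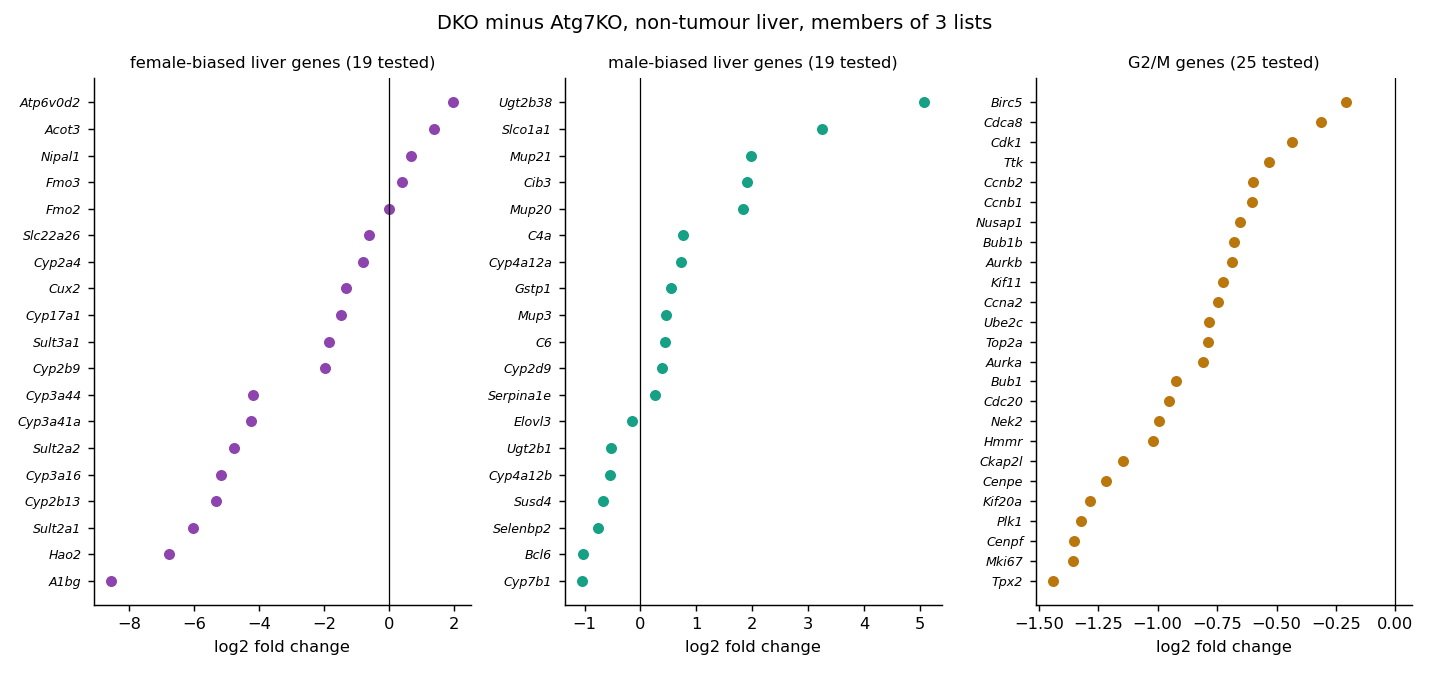
Log2 fold change (x axis, DKO minus Atg7KO, non-tumour liver) of each member (rows) of the female-biased, male-biased and G2/M lists. Of the female-biased genes 15 of 19 lie below 0, of the male-biased 12 of 19 above, and of the G2/M genes 25 of 25 below.

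Clock genes showed an uneven picture. Of 19 members 13 were above 0, with a median of 0.18, and 0 were called. The median was -0.03 without DKO replicate 1 and 0.31 without DKO replicate 2, so its direction rested on DKO replicate 1. Arntl, which encodes BMAL1, the core activator, had 2.04, 3.82 and 3.58 CPM in DKO liver, against 12.8, 11.9 and 20.2 CPM in Atg7KO liver, and its partner Npas2 had 0.552, 1.16 and 0.729 CPM in DKO liver, against 5.5, 3.33 and 6.37 CPM in Atg7KO liver. Both had every DKO library below every Atg7KO library (log2 fold change -2.25, SE 0.41, adjusted p 0.164 and log2 fold change -2.66, SE 0.75, adjusted p 0.226). Nr1d1, the repressor REV-ERB alpha, named after its values were seen, had 59.1, 49 and 44.8 CPM in DKO liver, against 57.4, 147 and 68.2 CPM in Atg7KO liver. The sampling time of each animal is not given in the sources used here, so its part in these values was not tested. A window of Arntl on the plus strand, chr7:113207261-113207560 of GRCm38.p6, is printed because it holds TAGGTCA, the core of the element that REV-ERB receptors bind, in capitals.
Arntl: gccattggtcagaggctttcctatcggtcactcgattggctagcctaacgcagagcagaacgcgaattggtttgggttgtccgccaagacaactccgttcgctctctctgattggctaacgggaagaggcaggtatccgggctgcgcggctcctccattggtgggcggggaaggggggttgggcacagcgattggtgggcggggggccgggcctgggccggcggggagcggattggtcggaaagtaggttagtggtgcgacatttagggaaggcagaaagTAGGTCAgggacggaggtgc
Of all 32851 windows 2.61% hold TAGGTCA on either strand. Of the 16 clock genes with a window, 2 have a window that does. A gene can have more than 1 window, so the count of genes and the share of windows are unlike measures. Another window of Arntl, starting at 113207215, holds 0 matches.

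Markers of other cells and of tissue repair are given because they could move with the whole-liver values. Endothelial genes had 16 of 18 below 0 and a median of -0.55 (-0.33 with the offset), with Eng at 83.3, 47.7 and 68.5 CPM in DKO liver, against 126, 93.3 and 103 CPM in Atg7KO liver and Kdr at 21.8, 17.1 and 34.9 CPM in DKO liver, against 41.6, 56.7 and 29.5 CPM in Atg7KO liver. Hepatic stellate and fibrosis genes had 20 of 23 below 0 and a median of -0.38, which was 0.20 without Atg7KO replicate 1, so its direction rested on that library. Bile duct genes had 14 of 20 below 0 and a median of -0.33, which was -0.10 without Atg7KO replicate 1, among them Sox9, the progenitor and duct factor, with 12.8, 8.4 and 18 CPM in DKO liver, against 40.5, 19.4 and 46.5 CPM in Atg7KO liver (log2 fold change -1.44, SE 0.36, adjusted p 0.226). Targets of YAP had 15 of 16 below 0 with a median of -0.48, and -0.21 with the offset. Macrophage genes had 15 of 21 above 0 and a median of 0.13, which was -0.05 without DKO replicate 2 and 0.37 without Atg7KO replicate 3. Lyz2, a lysozyme, had 573, 843 and 699 CPM in DKO liver, against 489.6, 379 and 466 CPM in Atg7KO liver, and Mertk, a receptor for dead cells, had 31, 22 and 38.7 CPM in DKO liver, against 34.3, 44 and 52.6 CPM in Atg7KO liver, with overlap. In none of these lists did a member pass edgeR, and the part of cell composition in the results was not tested.

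No gene of HMGB1 signalling passed the test. Of 19 receptors and partners tested 0 were called and 14 were below 0, with a median of -0.22 (-0.03 with the offset, -0.33 without DKO replicate 2 and -0.13 without DKO replicate 1). Ticam1, the TRIF adaptor of TLR3 and TLR4, had the lowest p of the list, with 20.1, 17.2 and 19 CPM in DKO liver, against 23.9, 28 and 25.5 CPM in Atg7KO liver, every DKO library below every Atg7KO library (log2 fold change -0.46, SE 0.20, adjusted p 0.311). In tumours Ticam1 had 19.3, 20 and 19.7 CPM in DKO tumours, against 34.5, 21.3 and 34.6 CPM in Atg7KO tumours, in the same order (log2 fold change -0.61, SE 0.20, adjusted p 0.191). Myd88, another adaptor of TLR4, had 36.4, 52.9 and 29.4 CPM in DKO liver, against 27.4, 25.2 and 30.1 CPM in Atg7KO liver, and Tlr9, a sensor of DNA, had 3.01, 2.46 and 3.41 CPM in DKO liver, against 6.47, 2.78 and 5.79 CPM in Atg7KO liver. Hmgb2, a closely related gene named after its values were seen, had 20, 41 and 18.8 CPM in DKO liver, against 33.7, 14.4 and 26.5 CPM in Atg7KO liver, with overlap (log2 fold change 0.09, SE 0.36, adjusted p 0.925). Core autophagy genes had 22 of 35 above 0 and a median of 0.11, and Gabarapl2, a lipidated autophagosome protein, had 55.1, 59.6 and 47.3 CPM in DKO liver, against 32.8, 32.4 and 29.6 CPM in Atg7KO liver (log2 fold change 0.77, SE 0.19, adjusted p 0.226). Of the 35, 0 passed edgeR and 3 passed DESeq2 (Gabarapl2, Atg16l1 and Atg4d), beside 2.08% of all autosomal genes given an adjusted p.

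Metabolic lists showed broad overlap. Of 32 fatty acid oxidation genes 27 were above 0 and 0 were called, with a median of 0.27 that was -0.02 without DKO replicate 1 and 0.76 without Atg7KO replicate 2. Acaa1a, a peroxisomal thiolase, had 227, 192 and 125 CPM in DKO liver, against 83.8, 125 and 73 CPM in Atg7KO liver (log2 fold change 0.95, SE 0.27, adjusted p 0.226). Periportal genes had 11 of 20 above 0, 0 called and a median of 0.12, which was -0.14 without Atg7KO replicate 1 and 0.38 without Atg7KO replicate 2. Among them Apoa4, an apolipoprotein, had 5619.5, 1013 and 1910.0 CPM in DKO liver, against 304, 851 and 448 CPM in Atg7KO liver, without overlap and with a wide spread in DKO liver (log2 fold change 2.41, SE 0.75, adjusted p 0.238), and its DESeq2 adjusted p was 0.0251. Etnppl, a phospholyase, had 22.6, 24.7 and 22.5 CPM in DKO liver, against 109, 66.4 and 79.3 CPM in Atg7KO liver (log2 fold change -1.87, SE 0.49, adjusted p 0.226), and Gldc, of glycine breakdown, had 59.9, 99.6 and 132 CPM in DKO liver, against 214, 278 and 206 CPM in Atg7KO liver (log2 fold change -1.26, SE 0.31, adjusted p 0.226). Etnppl and Gldc were lower in every DKO library. The list of oncofetal and liver cancer genes had 16 of 20 below 0, beside 53.7% of all autosomal genes, and 0 called by edgeR. Its median was -0.94, which was -0.79 with the length offset and -0.32 without Atg7KO replicate 1. In this list H19, an imprinted RNA that is silent in adult liver, had 2, 10.9 and 43 CPM in DKO liver, against 813, 113 and 274 CPM in Atg7KO liver. Every DKO value of H19 was below the Atg7KO values, and its spread within each group was wide (log2 fold change -4.42, SE 1.65, adjusted p 0.275).

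The genotype difference in tumours was fitted beside that in liver to see where the 24 named genes stood. There 1 autosomal gene was called higher (0.00715%) and 1 lower (0.00715%). Of the 12 higher genes 9 were above 0 in tumours, as were 49.9% of all autosomal genes, and of the 12 lower genes 10 were below 0, as were 50.1%. The interaction, which asks whether the difference differs between tissues, called 0 genes (0%) with edgeR and 2504 (17.9%) at an unadjusted p under 0.05, while DESeq2 called 468 (4.71%) and voom called 0. With same-numbered liver and tumour libraries of a genotype as a replicate block, chosen after seeing the data, it called 1 (Slc22a26). Nmrk1 was higher in DKO liver and not in DKO tumours, 8.44, 17.5 and 24.2 CPM in DKO tumours, against 20.2, 18.4 and 26.7 CPM in Atg7KO tumours, but its interaction adjusted p was 0.175. Cnnm4 had 6.61, 5.65 and 5.56 CPM in DKO tumours, against 12.1, 12.3 and 12.2 CPM in Atg7KO tumours, a difference that did not pass in tumours either (log2 fold change -1.04, SE 0.19, adjusted p 0.0708).

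**Figure D5:**
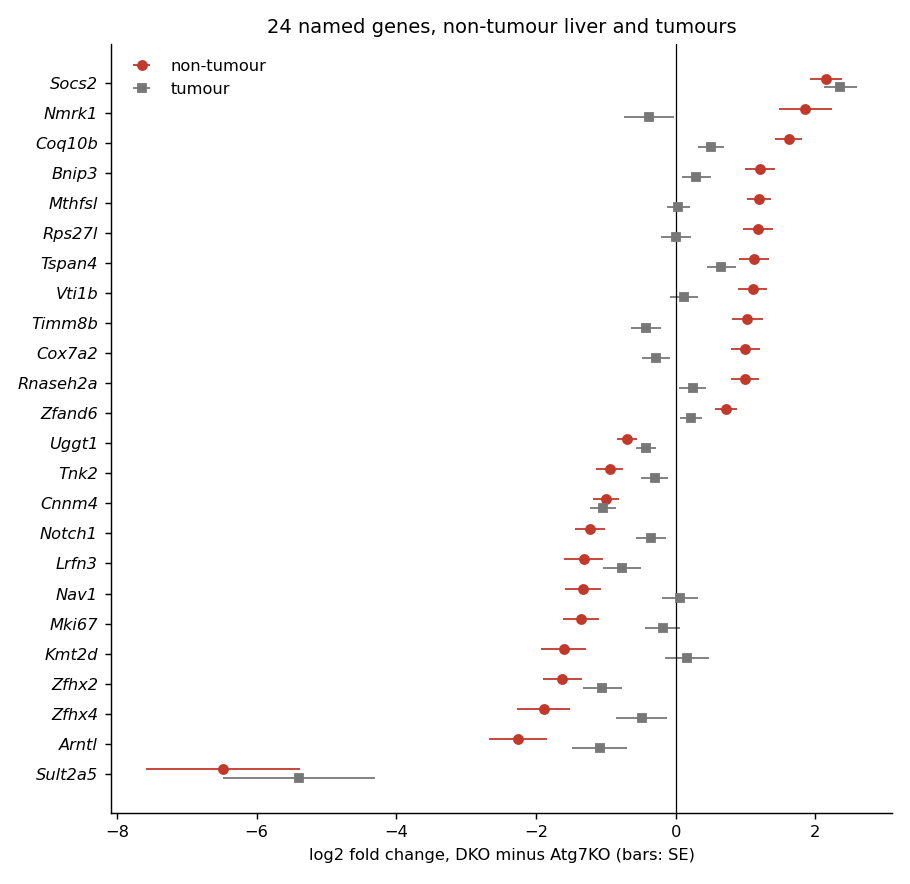
Log2 fold change with SE (x axis, DKO minus Atg7KO) of the 24 named genes (rows) in non-tumour liver (red circles) and tumours (grey squares), each from 3 against 3 libraries. Socs2 (2.15 and 2.36) and Cnnm4 (-1.0 and -1.04) are close in both tissues, while Coq10b (1.62 and 0.51) and Kmt2d (-1.6 and 0.16) are not, and no interaction passed the test. Values are without the gene length offset, with which Kmt2d, of 19827 bases, had -0.77 in non-tumour liver. Genes over 8000 bases had medians of -0.56 in non-tumour liver and 0.43 in tumours. The part of gene length in the Kmt2d gap was not tested.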

How the data were processed

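RNA of 12 mouse liver libraries was sequenced. The authors deposited raw counts, whole reads per RefSeq gene of mm10 with gene lengths. Per the submitters' processing notes, the tools were STAR 2.5.3a (after bcl2fastq), with Subread 1.5.3 (featureCounts) and also edgeR 3.20.8; library kit and strand setting are not given in the sources used here. All 27 names turned into dates were restored from the RefSeq accession. Genes were filtered with filterByExpr (minimum count 10, minimum total 15), scaled with TMM and tested by quasi-likelihood (edgeR 4.0.16, robust, legacy deviances, R 4.3.3), fitting the 12 libraries jointly, 1 coefficient for each group. The Benjamini-Hochberg adjusted p covered all 14443 genes, X and Y included, and was called under 0.05. Tests were two-sided. Single values had no permutation test, since 3 against 3 libraries cannot go below 0.1. DESeq2 1.42.0, limma 3.58.1 (voom), other filters and scalings, a length offset (loess, span 0.5) and leaving out libraries were alternatives. The fit was also run on counts simulated from the fitted model. Those counts held no gene length trend between the liver genotypes, so the run says nothing about that trend.

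Named were Atg7, Hmgb1 and Sqstm1; per direction the 12 genes of lowest p, called ones first, averaging 5 CPM or more where higher, with groups that did not overlap and no predicted-model symbol; and per list up to 3 members of lowest p and the 1 of highest CPM. Not every gene that the list part names is printed, and 1 is not reported here. Other names are said to be chosen after their values were seen. The members, comparison and 45 lists were chosen with earlier results of these data known. Of 25 genes looked up, 21 had a RefSeq promoter window (GRCm38.p6).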

Additional observations from a re-analysis of the deposited data

How the results depend on the processing

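Under the alternatives run, 0 results changed sign among called values. The 3 higher calls became 118 with DESeq2 and 326 with voom, 1 to 4 when 1 library was left out (from 1 less Atg7KO replicate 3 of the non-tumour set to 4 less DKO replicate 3 of that set) and 0 with the 6 non-tumour libraries less DKO replicate 2, which was chosen after seeing the data. The 0 lower calls became 111 with DESeq2, 217 with voom, 1 (Etnppl) with the 6 non-tumour libraries alone or with the length offset added to them (chosen after seeing the data), and 0 to 1 when 1 library was left out (Arntl without DKO tumour replicate 2). The interaction count of 0 became 468 with DESeq2. Replicate numbers do not pair the genotypes: the check of same-numbered DKO and Atg7KO non-tumour libraries gave correlations of -0.12, -0.08 and 0.09. These are not correlations of whole read levels, which were 0.9362 to 0.982 (Spearman) between the 6 non-tumour libraries. A replicate block gave 2 higher, 2 lower (Cyp3a16 and Cyp3a41a) and 1 interaction call (Cyp3a41a). The labels do not say whether same-numbered liver and tumour libraries of a genotype share an animal. In the same check those libraries correlated at 0.08, 0.34 and 0.03 in DKO and 0.02, 0.06 and 0.32 in Atg7KO. A replicate block within genotype, chosen after seeing the data, gave 1 interaction call (Slc22a26). Mthfsl had an adjusted p of 0.0712 over autosomal genes alone and 0.306 with the length offset. The cause of these changes was not tested. Depth limits genes with few reads, such as Sult2a5 in DKO liver.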
